A study of Mus musculus with 6 samples.

Results

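The genes described here are the solute carriers, the membrane proteins whose symbols begin with Slc, as measured in the cochlea of male DBA/2J mice aged 7 weeks (3 arrays) and 36 weeks (3 arrays). DBA/2J is an inbred strain that loses its hearing early in life, and no other genotype or treatment was part of the series. All animals were kept on a 12:12 light cycle. The series asked how expression in the cochlea differs with age-related hearing loss. Members were all genes with a probe set whose only gene symbol begins with Slc, which also takes in the Slco genes. The mitochondrial Slc25 family (33 genes) and 9 well-known cochlear, glutamate, erythrocyte and iron transporters were left out. Each gene was represented by its brightest probe set over the 6 arrays. This gave 231 genes of 48 families among 12393 genes on the array. They were taken as carriers of the plasma membrane, but that name does not cover all of them: 38 belong to families that work in vesicles, the Golgi apparatus or other internal membranes, Slc8b1 lies in mitochondria, and Slc9a3r1, Slc9a3r2 and Slc4a1ap are binding proteins and not transporters. Nothing in the labels says that the 3 samples of an age came from separate animals, so p-values measure only the spread between these samples, which may be technical.

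Solute carriers move ions, sugars, amino acids, vitamins and metabolites across membranes, either down a gradient or coupled to sodium, protons or chloride. In the cochlea, transport of potassium, chloride and bicarbonate keeps up the composition of endolymph, the potassium-rich fluid over the hair cells. Glucose, lactate, choline and thyroid hormone carriers supply the sensory and supporting cells, and loss of several carriers causes deafness in humans or mice.

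The deposited values are linear probe-set signals with array medians between 766.3 and 800.45 at 7 weeks and between 843.95 and 859.35 at 36 weeks. The cochlear markers Coch and Otos, products of fibrocytes of the spiral ligament, were strongly detected, with mean signals of 82143.5 and 73912.2 at 7 weeks and 21556.3 and 13801.2 at 36 weeks. Of 12 hair cell markers, 6 lay below the filter on dim probe sets. All 14 neutrophil markers rose with age, and their summed signal went from between 49667.6 and 54464.2 to between 678255 and 722027. All 16 tested skeletal muscle markers fell, from between 347894 and 364979 to between 119123 and 124759. Sums here and below are over all measured markers of a list, tested or not. Of 12 tested markers of mucosal and secretory epithelium, 9 rose and 2 fell, with sums from between 128363 and 137691 to between 468997 and 497014. Ltf is in this list and in the neutrophil list. All 7 tested markers of bone and cartilage fell, with sums from between 16797.2 and 17520.3 to between 6662.5 and 6905.6. In whole tissue of this kind, the amount of a cell type or tissue in a sample and the RNA per cell cannot be told apart.

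Between 7 and 36 weeks, 22 solute carriers rose and 26 fell among the 146 whose mean signal passed the filter on dim probe sets, which stood at 593.567. The test was limma on log2(signal + 50), with Benjamini-Hochberg adjustment over all 13575 tested probe sets and a threshold of 0.05. Log2 differences are 36 weeks minus 7 weeks and stand with their standard error (SE), with n = 3 arrays per age. The members called made up 32.9% of those tested, against 34.4% of all tested probe sets and 35.1% of all tested genes, a share near the background. By direction, 16.7% of all tested probe sets were higher and 17.7% lower. The median difference was 0.05 on the log2 scale over the tested carriers and 0.02 over all tested probe sets. A change of at least 2-fold was reached by 8 of the higher and 10 of the lower carriers. The background for such rises was 5.33% of tested probe sets and 5.46% of tested genes, and for such falls 4.27% and 4.51%. The 3 arrays of one age did not overlap with the other 3 in 74 tested carriers (50.7%), against 47.8% of all tested probe sets and 48.3% of all tested genes, and these included all 48 called carriers. When every array was centred on its own median, which moved the median of all probe sets from 0.02 to -0.08, the split became 18 higher and 34 lower. Without the filter on dim probe sets Slc12a4, Slc19a1, Slc37a1, Slc39a3, Slc41a2, Slc41a3, Slc6a15 and Slc7a4 no longer passed (adjusted p between 0.0503 and 0.0803). Without the intensity trend in the test Slc2a1, Slc37a1, Slc39a3, Slc41a3, Slc6a15 and Slc7a4 did not pass (adjusted p between 0.0511 and 0.0909). A tested member can pass the filter through 1 age alone. That held for 13 members dim at 7 weeks, of which Slc1a6, Slc7a7, Slc16a3, Slc32a1 and Slc35c2 rose, and for 6 members dim at 36 weeks, of which Slc6a20a, Slc13a3, Slc22a2 and Slc37a1 fell. Counts of tested members that include these genes hold them through the age at which they were high.

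**Figure D1:**
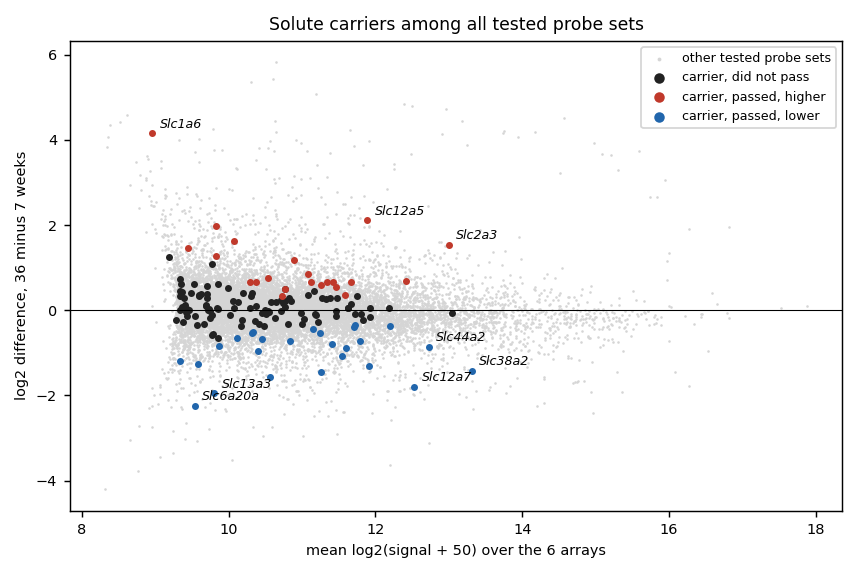
Log2 difference between 36 and 7 weeks (vertical axis) against the mean log2(signal + 50) over the 6 arrays (horizontal axis) for all 13575 tested probe sets. Grey points are other probe sets, and the 146 tested carriers are black, red where higher or blue where lower. The called carriers, 22 higher and 26 lower, lie on both sides of 0, with Slc1a6 at 4.17 and Slc6a20a at -2.24.

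By family, 8 families held calls in both directions, 7 held only rises and 9 only falls. A further 20 families had tested members and no call, and 4 had no tested member. Every tested member was called in Slc12 (2 higher, 2 lower), in Slc16 (2 higher, 1 lower), in Slc41 (1 higher, 2 lower) and in Slc44 (2 lower). In Slc6, 6 of 8 tested members were called, 2 higher and 4 lower. These families are small, and the share of called members in a family of 2 to 4 rests on few genes. At the other end, 2 of 16 tested Slc35 members and 1 of 9 tested Slc22 members were called. Over all tested genes, 35.1% were called. Slc16a3, Slc6a20a, Slc35c2 and Slc22a2 are counted in these families through the age at which they were high.

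**Figure D2:**
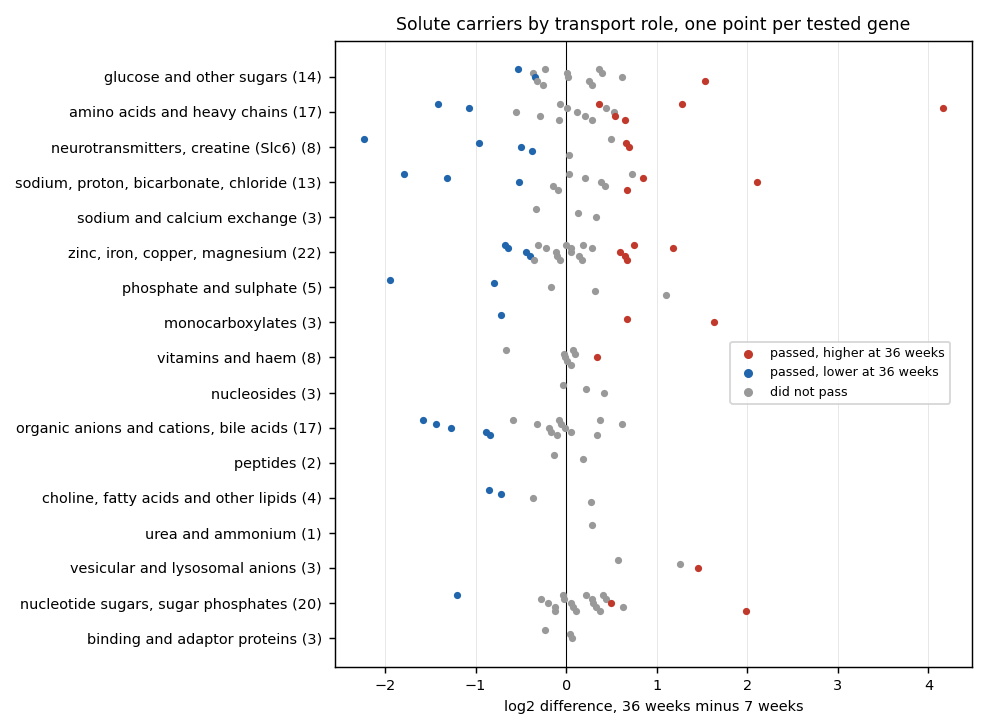
Log2 difference between 36 and 7 weeks (horizontal axis) for each tested carrier, in rows by transport role with the number tested in brackets. Red and blue points passed the test and grey points did not. Called points lie only below 0 in the rows of organic ions (5), choline and other lipids (2) and phosphate and sulphate (2). These rows also hold grey points above 0. Called points lie only above 0 in the rows of vitamins (1) and vesicular anions (1).

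Ion carriers that set the chloride and bicarbonate level of cells moved in opposite directions within one family. Slc12a5, the potassium-chloride cotransporter KCC2 of neurons, rose 4.41-fold. Slc12a7, the cotransporter KCC4, which supporting cells around the hair cells use and whose loss deafens mice, fell 3.50-fold. Among the 13 tested carriers of sodium, protons, bicarbonate and chloride, 3 rose and 3 fell, and the median was 0.21. The promoters of these cotransporters are shown because both genes belong to one family and moved apart. Each runs from 250 bases before to 50 bases after the start in RefSeq on build GRCm38.p6, on the plus strand, and is the first of 2 entries of its gene. Slc12a5 is at chr2:164960596-164960895 and Slc12a7 at chr13:73763410-73763709. Capitals mark matches on either strand to the TATA box TATAAA, the CCAAT box CCAAT, the GC box GGGCGG and the E-box CACGTG, and matches can overlap.
Slc12a5: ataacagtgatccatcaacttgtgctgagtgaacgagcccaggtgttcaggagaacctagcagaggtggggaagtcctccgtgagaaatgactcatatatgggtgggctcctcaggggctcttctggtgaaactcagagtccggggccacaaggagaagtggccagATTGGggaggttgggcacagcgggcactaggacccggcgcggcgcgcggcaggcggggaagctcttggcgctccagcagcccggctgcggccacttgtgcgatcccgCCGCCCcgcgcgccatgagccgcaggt
Slc12a7: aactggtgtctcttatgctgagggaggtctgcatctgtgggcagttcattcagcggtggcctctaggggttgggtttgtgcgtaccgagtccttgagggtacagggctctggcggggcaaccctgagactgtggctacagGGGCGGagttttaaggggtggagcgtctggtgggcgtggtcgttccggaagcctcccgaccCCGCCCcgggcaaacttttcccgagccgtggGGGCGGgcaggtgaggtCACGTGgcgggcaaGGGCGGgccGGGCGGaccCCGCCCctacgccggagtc

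The Slc12a5 window held 1 GC box and 1 CCAAT box, with 21 CpG pairs and 63.7% G or C. The Slc12a7 window held 6 GC boxes and 1 E-box, with 23 CpG pairs and 66.7% G or C. A match is only a description of these letters.

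Slc12a5 had signals of 1777.9, 1693.7 and 1858.1 at 7 weeks and of 8231.6, 7464.3 and 7799.6 at 36 weeks. Each old array was far above each young one, with a log2 difference of 2.11 ± 0.09 (SE, limma adjusted p = 7.49e-08). Slc12a7 had signals of 10603.8, 11566.7 and 10748.6 at 7 weeks and of 3137.9, 3079.8 and 3180.7 at 36 weeks. The ages were again wide apart, with a difference of -1.79 ± 0.08 (limma adjusted p = 8.01e-08), and a second probe set of the gene fell by less, at -0.52 (limma adjusted p = 0.0179). Slc12a9, a relative that binds other cotransporters, had signals of 1371.6, 1774.8 and 1565.6 at 7 weeks and 2858.7, 2407.6 and 3360.2 at 36 weeks, a rise of 0.85 ± 0.15 (limma adjusted p = 0.00156). Slc12a4, the widely expressed cotransporter KCC1, fell by 0.53 ± 0.16 (limma adjusted p = 0.0273), but this call was lost without 7-week array 2 or 3 or 36-week array 2 or 3, with adjusted p up to 0.0991.

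**Figure D3:**
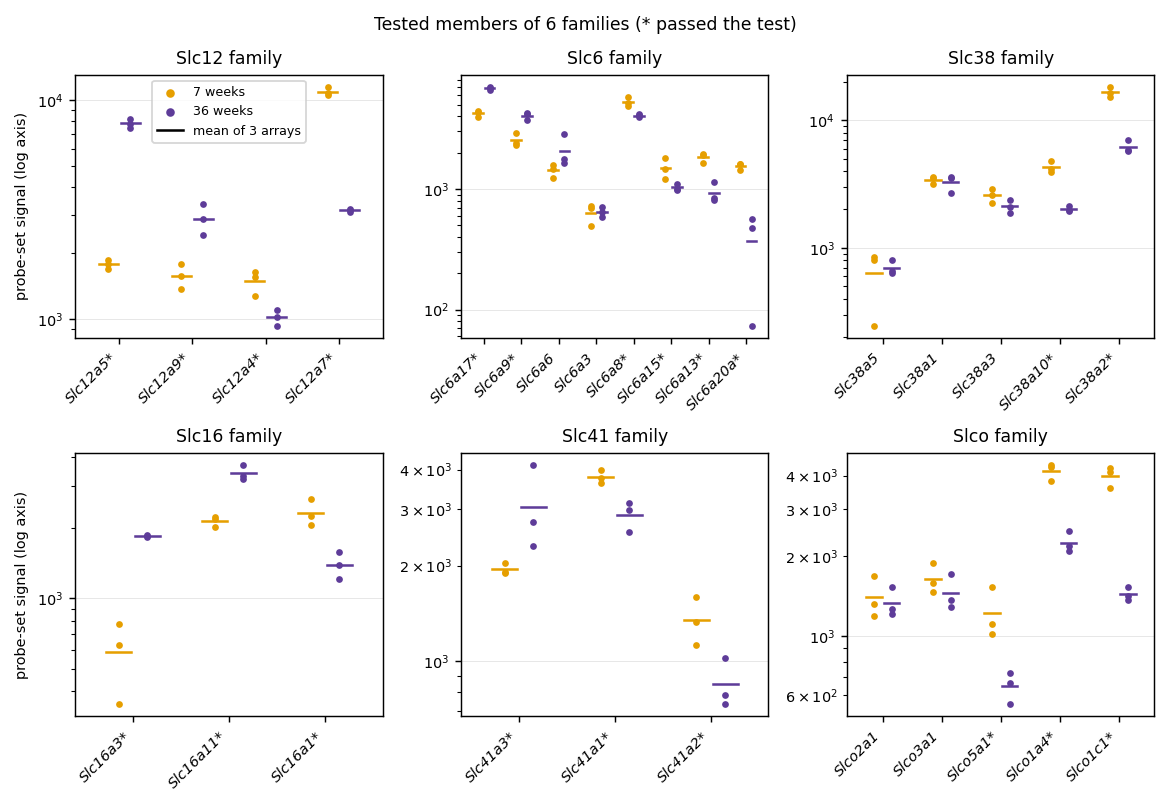
Probe-set signal on a log axis for each array of the tested members of 6 families, 7 weeks in orange and 36 weeks in purple, with bars for the mean of 3 arrays and an asterisk for members that passed. Slc12a5 is higher and Slc12a7 lower at 36 weeks, and in the Slco family the called members Slco1c1, Slco1a4 and Slco5a1 are lower at 36 weeks.

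Bicarbonate carriers also split. Slc4a10, a sodium-coupled bicarbonate transporter known from choroid plexus and neurons, had signals of 5798.2, 6219.0 and 6091.8 at 7 weeks and 2777.1, 2212.5 and 2228.6 at 36 weeks. The groups were well separated and the fall was 1.32 ± 0.11 on the log2 scale (limma adjusted p = 8.38e-06). Slc4a4, the sodium-bicarbonate cotransporter NBCe1, rose by 0.67 ± 0.13 (limma adjusted p = 0.00295), with signals of 1634.8 to 1864.6 at 7 weeks and 2528.1 to 3243.0 at 36 weeks. Its second tested probe set gave 0.68, while the mean of all its probe sets gave 0.52 and did not pass (adjusted p = 0.0964). The sodium-calcium exchangers had 3 tested members, and these did not pass: Slc24a3 stood at 0.33 (adjusted p = 0.0713) and the mitochondrial Slc8b1 at -0.33 (adjusted p = 0.0961).

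Amino acid carriers showed the largest rise of any member. Slc1a6, the glutamate transporter EAAT4 of cerebellar Purkinje cells, went from dim signals of 47.1, 74.0 and 84.3 at 7 weeks to 2178.0, 2285.6 and 1745.7 at 36 weeks. The log2 difference was 4.17 ± 0.34 (limma adjusted p = 6.78e-06) and the ratio of mean signals was 30.2, whose size depends on the floor of the signal at 7 weeks. Under a filter on the mean log2 signal the gene was not tested. Of 17 tested amino acid carriers and heavy chains, 5 rose and 2 fell, with a median of 0.20. Over all tested probe sets, 16.7% were higher and 17.7% lower. Among the 5, Slc1a6 and Slc7a7 stood under the filter level at 7 weeks and were tested through their signals at 36 weeks. The promoter of Slc1a6 at chr10:78780246-78780545 (plus strand, GRCm38.p6, RefSeq, its 1 entry), shown as that of the gene with the largest rise, held 6 GC boxes and 1 E-box, with 32 CpG pairs and 75.7% G or C.
Slc1a6: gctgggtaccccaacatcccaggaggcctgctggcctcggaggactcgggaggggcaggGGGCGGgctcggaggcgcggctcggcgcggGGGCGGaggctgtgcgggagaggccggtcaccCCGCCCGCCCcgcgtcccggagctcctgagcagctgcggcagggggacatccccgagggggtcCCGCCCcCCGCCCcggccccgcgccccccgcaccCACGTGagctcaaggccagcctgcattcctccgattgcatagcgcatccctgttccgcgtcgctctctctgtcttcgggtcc

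Beside Slc1a6, 9 of 10 tested markers of brain rose. The summed signal of all 13 measured ones went from between 23185.3 and 23670.8 to between 74511.6 and 79730.2. The part of brain tissue in the rise of Slc1a6 was not tested. The markers Zic2, Mog and Slc1a2 of that list were dim at both ages. Slc1a2, a glutamate transporter of astrocytes, had mean signals of 166.8 and 448 at 7 and 36 weeks.

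The brightest fall in this group was that of Slc38a2, the sodium-coupled neutral amino acid carrier SNAT2. Its signals were 15145.5, 18365.2 and 16350.8 at 7 weeks and 5722.8, 7017.3 and 5829.8 at 36 weeks. No old array reached a young one, and the gene fell by 1.42 ± 0.10 on the log2 scale (limma adjusted p = 2.57e-06). Slc38a10, a less studied relative, fell by 1.07 ± 0.11 at its brightest probe set (limma adjusted p = 4.12e-05), from 3897.0, 4180.1 and 4797.3 to 1985.3, 1928.6 and 2126.0. Its probe sets disagreed: others fell by 0.66 (adjusted p = 0.00162) and 0.63 (adjusted p = 0.0313), while 1 rose by 0.97 (adjusted p = 0.00161). The mean over all its probe sets was -0.26 and did not pass (adjusted p = 0.187), so no direction can be given for the gene as a whole.

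Cationic and neutral amino acid exchangers of the Slc7 family had 3 rises among 6 tested members, with a median of 0.48. Over all tested probe sets, 16.7% were higher. Of the 3, Slc7a7 stood under the filter level at 7 weeks and was tested through its signal at 36 weeks. Slc7a7, the light chain y+LAT1 that macrophages and epithelia use, had signals of 485.6, 583.3 and 539.9 at 7 weeks and of 993.6, 1277.9 and 2012.3 at 36 weeks. The old arrays were all higher but spread over a 2-fold range, and the rise was 1.28 ± 0.25 (limma adjusted p = 0.00312). Slc7a10, the exchanger Asc-1 of brain and fat, rose by 0.65 ± 0.17 (limma adjusted p = 0.0118), a call lost without 36-week array 1 (0.52, adjusted p = 0.0540). Slc7a4 rose by 0.36 ± 0.13 (limma adjusted p = 0.0473), and this weakest call of the group was lost without any array but 7-week array 1, with adjusted p up to 0.149, and with centring on the array median (adjusted p = 0.116). Slc66a2, whose transport role is little known, rose by 0.54 ± 0.11 (limma adjusted p = 0.00328). With the mean over its probe sets Slc66a2 gave 0.39 and did not pass (adjusted p = 0.0624).

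The Slc6 family carries neurotransmitters, amino acids and creatine with sodium and chloride. Of its 8 tested members Slc6a9 and Slc6a17 rose, and Slc6a8, Slc6a13, Slc6a15 and Slc6a20a fell. Slc6a20a, a carrier of proline and related imino acids, had signals of 1445.3, 1623.3 and 1627.2 at 7 weeks and of 73.2, 475.0 and 568.8 at 36 weeks. The ages did not overlap, although 36-week array 1 stood far below the other two. The fall was 2.24 ± 0.51 on the log2 scale (limma adjusted p = 0.00642), and -1.50 without that array. Slc6a13, the GABA and taurine carrier GAT2 found in meninges, fell by 0.96 ± 0.17 (limma adjusted p = 0.00146), from 1964.4, 1914.5 and 1653.0 to 804.3, 846.1 and 1141.5. Slc6a8, the creatine carrier, fell by 0.38 ± 0.09 (limma adjusted p = 0.00991), from between 4921.0 and 5798.6 to between 3925.7 and 4154.3. The mean over its probe sets was -0.17 and did not pass (adjusted p = 0.146). Slc6a15, a neutral amino acid carrier of neurons, fell by 0.50 ± 0.17 (limma adjusted p = 0.0456). That call was lost without any array but 7-week array 3, with adjusted p up to 0.168.

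On the rising side, Slc6a17, the vesicular amino acid carrier NTT4, had signals of 4444.5, 3969.2 and 4329.5 at 7 weeks and of 7084.8, 6916.5 and 6677.8 at 36 weeks. The groups were well apart, with a rise of 0.69 ± 0.08 (limma adjusted p = 0.000123). Slc6a9, the glycine transporter GlyT1 of glia, rose by 0.66 ± 0.12 (limma adjusted p = 0.00158), from between 2331.0 and 2930.8 to between 3711.6 and 4295.7, and its second probe set rose by 0.50.

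**Figure D4:**
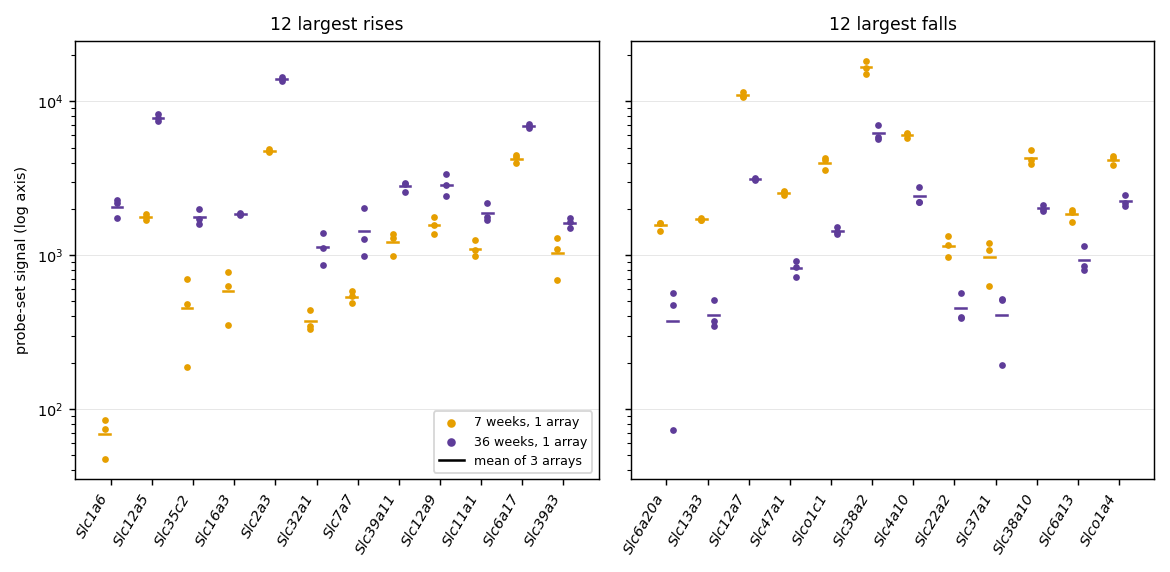
Probe-set signal on a log axis in each array for the 12 largest rises (left) and the 12 largest falls (right) among the called carriers, 7 weeks in orange, 36 weeks in purple and bars for the mean of 3 arrays. Slc1a6 is dim at 7 weeks (47.1 to 84.3), and in each gene the 3 arrays of one age lie wholly above those of the other.

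Of 14 tested sugar carriers, 1 rose and 2 fell, with a median of 0.02. Over the alternatives run, 1 to 3 of them were higher and 0 to 4 lower. Slc2a3, the glucose transporter GLUT3 that neurons and white blood cells rely on, had signals of 4886.9, 4735.5 and 4684.4 at 7 weeks and of 14312.8, 13990.3 and 13539.7 at 36 weeks. The spread within an age was small beside the rise of 1.54 ± 0.07 (limma adjusted p = 1.05e-07), and a second probe set rose by 1.66. Both have names of the kind that can bind transcripts of related genes, as do the brightest probe sets of Slc44a2 and Slc66a2. Slc2a1, the glucose transporter GLUT1 of vessels and red cells, fell by 0.35 ± 0.11 at its brightest probe set (limma adjusted p = 0.0297), a call lost without 7-week array 1 or 3 or 36-week array 2 or 3 (adjusted p up to 0.106). Its other tested probe sets fell by more, at -0.87 (adjusted p = 0.000397) and -1.08 (adjusted p = 0.000122). Slc45a2, the melanosome protein mutated in a form of albinism, fell by 0.53 ± 0.14 (limma adjusted p = 0.0129), which was lost without 7-week array 3 (adjusted p = 0.0505), and its second probe set fell by 0.98. Pigment cell markers, listed after these values were seen, fell in 3 of 5 tested genes, with summed signals from between 21212.5 and 25421 to between 8367.8 and 10846.6. Their part in the fall of Slc45a2 was not tested.

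The Slc16 family of monocarboxylate carriers had 7 members on the array, of which 3 were tested and 4 were too dim. Of these 3, Slc16a3 and Slc16a11 rose and Slc16a1 fell, but Slc16a3 stood below the filter level at 7 weeks and was tested through its signal at 36 weeks. Slc16a3, the lactate exporter MCT4 of glycolytic cells, had signals of 630.3, 352.9 and 776.9 at 7 weeks and of 1828.7, 1838.4 and 1866.9 at 36 weeks. The young arrays varied more than 2-fold among themselves and the old ones hardly at all, and the rise was 1.64 ± 0.25 (limma adjusted p = 0.000537). Slc16a1, the lactate and pyruvate carrier MCT1, fell by 0.72 ± 0.15 (limma adjusted p = 0.00365), from 2251.0, 2648.9 and 2044.7 to 1384.3, 1209.7 and 1568.1. Slc16a11, another member of the family, rose by 0.67 ± 0.11 (limma adjusted p = 0.000774). Basigin (Bsg), the partner that brings MCT1 and MCT4 to the cell surface, stood at -0.01 and did not pass.

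Organic anion and cation carriers, which move drugs, hormones and bile acids, gave 5 falls among 17 tested members, with a median of -0.17. That is 29.4%, beside 17.7% of all tested probe sets lower, and rests on few genes. Of the 5, Slc22a2 stood under the filter level at 36 weeks and was tested through its signal at 7 weeks. In the limma test none of the 17 rose, and at an unadjusted p under 0.05 there were 1 higher and 6 lower. Of the 5 tested Slco members 3 fell, with a family median of -0.84. Slco1c1, the thyroxine carrier OATP1C1 of brain vessels and choroid plexus, fell most among them, and its promoter at chr6:141524104-141524403 (plus strand, GRCm38.p6, RefSeq, its 1 entry) is shown for that reason.
Slco1c1: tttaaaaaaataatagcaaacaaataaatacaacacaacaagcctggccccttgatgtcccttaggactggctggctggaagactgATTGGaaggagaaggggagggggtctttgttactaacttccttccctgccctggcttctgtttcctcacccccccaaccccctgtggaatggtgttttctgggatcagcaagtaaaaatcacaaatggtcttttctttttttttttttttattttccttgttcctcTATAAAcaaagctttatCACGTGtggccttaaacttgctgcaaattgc

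The Slco1c1 window held 1 TATA box, 1 CCAAT box and 1 E-box, 1 CpG pair and 42% G or C. Among 32851 full-length promoters of the RefSeq table, with 1 chromosome left out, a TATA box was found in 13.6% and a CCAAT box in 37.4%. A GC box was found in 35.7% and an E-box in 7.15%. This set counts every entry of a gene, unlike the members that follow, so the shares are not of like sets. Members with 1 promoter entry and a call in the test held a GC box in 6 of 10 when higher and in 11 of 15 when lower, and those that did not pass held it in 40 of 60.

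Slco1c1 had signals of 3584.1, 4266.0 and 4136.0 at 7 weeks and of 1531.5, 1413.0 and 1363.7 at 36 weeks. The groups were far apart, and the fall was 1.44 ± 0.12 on the log2 scale (limma adjusted p = 6.45e-06). Slco1a4, an organic anion carrier of brain vessels, fell by 0.88 ± 0.11 (limma adjusted p = 0.000145), from 3830.1, 4389.5 and 4300.5 to 2477.5, 2173.0 and 2078.8. Slco5a1, of less certain role, fell by 0.84 ± 0.21 (limma adjusted p = 0.0114), which was lost without 7-week array 2 (-0.68, adjusted p = 0.0586). Slc47a1, the proton-coupled cation exporter MATE1, had signals of 2630.0, 2454.6 and 2573.6 at 7 weeks and of 840.1, 716.2 and 922.8 at 36 weeks. This was the largest fall of the group, at -1.58 ± 0.14 (limma adjusted p = 1.41e-05). Slc22a2, the organic cation transporter OCT2, fell by 1.27 ± 0.24 (limma adjusted p = 0.00224), from between 972.0 and 1330.9 to between 389.6 and 564.5, which is dim.

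Beside these falls, 9 of 10 tested markers of meningeal fibroblasts fell and 1 rose, with summed signals from between 187776 and 214342 to between 111262 and 113390. Of 4 tested choroid plexus markers, 3 fell, with sums from between 20853.2 and 23476.6 to between 7909.3 and 8881.3. None of the 7 tested markers of brain endothelium passed. The 8 measured ones had sums between 9834.7 and 10722.8 at 7 weeks and between 10171.3 and 11609.1 at 36 weeks. These 3 lists were chosen after the carriers' values were seen, and their part in the result was not tested.

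Carriers of metals moved both ways, with 5 rises and 4 falls among 22 tested members and a median of 0.03. Slc39a11, a zinc importer of the ZIP family, had signals of 1286.8, 984.5 and 1376.8 at 7 weeks and of 2958.3, 2561.1 and 2880.5 at 36 weeks. It rose by 1.18 ± 0.15 (limma adjusted p = 0.000149), the largest change of the metal carriers. Slc11a1, the metal pump NRAMP1 of phagosomes, rose by 0.75 ± 0.16 (limma adjusted p = 0.00393), from 1074.8, 987.0 and 1246.0 to 1698.1, 2189.7 and 1778.4. Slc30a3, which loads zinc into synaptic vesicles, rose by 0.65 ± 0.15 (limma adjusted p = 0.00758), from between 1792.7 and 2418.9 to between 2664.6 and 3645.5. Slc39a3, another zinc importer, rose by 0.67 ± 0.21 (limma adjusted p = 0.0319) from 694.4, 1300.5 and 1103.7 to 1501.2, 1644.3 and 1740.7. That call was lost without 7-week array 1 (0.42, adjusted p = 0.0762) or any of the 36-week arrays (adjusted p up to 0.0889) and with centring on the array median (adjusted p = 0.0639). A second probe set of Slc39a3 rose by 0.88 (limma adjusted p = 0.00555). Falls of zinc carriers were those of Slc39a1, at -0.68 ± 0.20 (limma adjusted p = 0.0238), and Slc30a9, at -0.45 ± 0.12 (limma adjusted p = 0.0167). Both were lost without some arrays, Slc39a1 without 7-week array 2 or 36-week array 2 or 3 (adjusted p up to 0.0989), and Slc30a9 without 7-week array 1 or 36-week array 2 or 3 (adjusted p up to 0.0587).

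The 3 magnesium carriers of the Slc41 family were all called, and each call was lost without at least 1 array. Slc41a1, a magnesium exporter, fell by 0.40 ± 0.11 (limma adjusted p = 0.0172), from 3644.6, 3767.5 and 3999.1 to 3132.4, 2542.9 and 2990.2. Without 7-week array 3 or 36-week array 2 this was lost (adjusted p up to 0.0617). Slc41a2 fell by 0.64 ± 0.20 (limma adjusted p = 0.0277), which was lost without 7-week array 1 or 2 or 36-week array 1 or 2 (adjusted p up to 0.112). Slc41a3 rose by 0.60 ± 0.19 (limma adjusted p = 0.0294), a rise that rested on 36-week array 1, at 4143.3 against 2300.7 and 2740.5 in the others. Without that array it was 0.36 and did not pass (adjusted p = 0.0749), nor did it without any 7-week array (adjusted p up to 0.0724), with centring (adjusted p = 0.0557) or over all its probe sets, at 0.02.

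Carriers of phosphate, sulphate and dicarboxylates gave 2 falls among 5 tested members, beside 17.7% of all tested probe sets lower. Of the 2, Slc13a3 stood under the filter level at 36 weeks and was tested through its signal at 7 weeks. Slc13a3, the dicarboxylate carrier NaDC3, had signals of 1746.4, 1681.1 and 1691.9 at 7 weeks and of 347.6, 375.2 and 507.7 at 36 weeks. The old arrays were dim and none approached the young ones, and the fall was 1.95 ± 0.20 on the log2 scale (limma adjusted p = 4.02e-05). The probe set has a name of the kind that can bind transcripts of related genes, and a second one fell by 0.92 (adjusted p = 0.0201). Slc20a2, the phosphate carrier PiT2, fell by 0.80 ± 0.13 (limma adjusted p = 0.00106), from 2989.5, 4192.8 and 3558.1 to 2165.1, 1919.2 and 1968.1. Its second probe set pointed the other way, at 0.24, and did not pass (limma adjusted p = 0.442). The mean over its probe sets was -0.28 and did not pass (adjusted p = 0.0912). Slc34a2, another phosphate carrier, stood at 1.10 ± 0.47 and did not pass (adjusted p = 0.0939).

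Both tested choline carriers fell. Slc44a2, also known as CTL2, is a choline transporter-like protein of inner-ear supporting cells whose loss impairs hearing in mice. Its signals were 8851.6, 9533.3 and 8791.9 at 7 weeks and 4775.9, 5279.2 and 4910.1 at 36 weeks. The fall was 0.85 ± 0.08 on the log2 scale (limma adjusted p = 2.07e-05), well beyond the spread between arrays, and a second probe set fell by 1.16. Slc44a1, the related carrier CTL1, fell by 0.72 ± 0.10 (limma adjusted p = 0.000328), from 4710.1, 4633.0 and 4182.6 to 2511.0, 2851.1 and 2797.5, with its second probe set at -0.58.

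Vitamin carriers had 1 rise among 8 tested members. Slc19a1, the folate carrier, was 0.34 ± 0.12 higher (limma adjusted p = 0.0494), the weakest of all 48 calls. It was lost without any 1 of the 6 arrays (adjusted p up to 0.109), with quantile normalization (adjusted p = 0.0733) and with centring (adjusted p = 0.161). The mean over its probe sets was 0.12 (adjusted p = 0.682), and a second tested probe set stood at -0.48 and did not pass (adjusted p = 0.168). Slc23a2, the vitamin C carrier, stood at -0.02. No test was passed by the 3 nucleoside carriers, where Slc29a1 stood at 0.22 (adjusted p = 0.240) and Slc29a2 at 0.41 (adjusted p = 0.243). Neither did the peptide carriers Slc15a2 (0.19, adjusted p = 0.331) and Slc15a4 (-0.14, adjusted p = 0.708), nor the urea carrier Slc14a2 (0.29, adjusted p = 0.612).

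Members of the families of internal membranes had 4 rises and 2 falls among 29 tested, with a median of 0.21. Among these calls, Slc32a1, Slc35c2 and Slc37a1 were tested through the age at which they were high. Other families, without the 3 binding proteins, had 18 rises and 24 falls among 114 tested, with a median of 0.00. This split is by family number and not by membrane. The 114 include Slc6a17, Slc11a1, Slc45a2 and Slc8b1, described here as proteins of vesicles, phagosomes, melanosomes and mitochondria. Slc32a1, which loads GABA and glycine into synaptic vesicles, had signals of 441.0, 345.5 and 329.4 at 7 weeks and 1105.6, 1397.2 and 866.1 at 36 weeks. It rose by 1.46 ± 0.26 (limma adjusted p = 0.00175), from dim values. Slc35c2, a Golgi protein linked to fucose transport, had signals of 187.0, 480.2 and 700.7 at 7 weeks and of 1989.6, 1705.3 and 1599.4 at 36 weeks. The young arrays spread widely, yet the old ones were all higher, and the rise was 1.99 ± 0.36 (limma adjusted p = 0.00168). Slc35e1 rose by 0.49 ± 0.13 (limma adjusted p = 0.0158), which was lost without 36-week array 2 (adjusted p = 0.0625) and with the mean over its probe sets (adjusted p = 0.0912). Slc37a1, an antiporter of glucose-6-phosphate in the endoplasmic reticulum, fell by 1.20 ± 0.39 (limma adjusted p = 0.0351), from 626.3, 1078.4 and 1198.4 to 519.9, 512.1 and 193.6. Without 36-week array 3 it was -0.80 and did not pass (adjusted p = 0.0799), nor did it without 7-week array 2 or 3 (adjusted p up to 0.129). Slc17a9, the vesicular nucleotide carrier, stood at 1.25 ± 0.47 (adjusted p = 0.0615) and Slc17a3 at 0.57 ± 0.21 (adjusted p = 0.0557). Among the binding proteins, Slc9a3r1 stood at -0.23 (adjusted p = 0.132) and Slc9a3r2 at 0.05 (adjusted p = 0.820), though 2 further probe sets of Slc9a3r2 rose by 0.47 and 0.48.

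Of the carriers linked to hearing in humans or mice, 15 were measured and 10 tested. Slc12a7, Slc44a2 and Slc2a1 fell, as described, and no other member of this list passed, with a median of -0.22. The calls made up 30% of those tested, a share near the 34.4% called of all tested probe sets. Of all tested probe sets, 17.7% were lower. Slc19a2, the thiamine carrier lost in a syndrome of anaemia, diabetes and deafness, stood at -0.66 ± 0.24 (adjusted p = 0.0517), and Slc7a8, a neutral amino acid exchanger, stood at -0.55 (adjusted p = 0.0787). With quantile normalization or centring on the array median both of these passed, which made 5 falls. Those settings also raised the number of falls among all tested carriers. Slc4a2, Slc26a2, Slc29a3, Slc30a4 and Slc52a3 stood between -0.09 and 0.08. Those not tested had mean signals of 199.267 and 565.3 at 7 and 36 weeks for Slc19a3, 89.7 and 177.2 for Slc22a4, 626.4 and 333.3 for Slc33a1, 663.1 and 479.4 for Slc39a8, and 268.3 and 413.8 for Slc44a4. Fibrocyte markers of the lateral wall fell in 9 of 9 tested genes, with sums from between 260164 and 269912 to between 64083.7 and 66195. Markers of the stria vascularis fell in 6 of 9 tested. Their part in these falls was not tested.

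In a list of carriers of neurons and glia, 6 of 8 tested members rose, namely Slc6a9, Slc7a10, Slc32a1, Slc6a17, Slc2a3 and Slc12a5, beside 16.7% of all tested probe sets. Of these, Slc32a1 stood under the filter level at 7 weeks and was tested through its signal at 36 weeks. Slc2a3 also serves white blood cells and Slc7a10 fat, so the list is not particular to neurons and glia. The median of the 8 tested members was 0.68, with 0.57 to 0.73 over the alternatives run. With a 2-fold minimum 3 of them rose, and with centring on the array median 6 rose and 1 fell. The list does not hold every carrier that neurons use: Slc1a6 and Slc30a3, which rose, and Slc4a10 and Slc6a15, which fell, were not in it. Brain markers rose as given beside Slc1a6, and so did 5 of 5 tested markers of the anterior pituitary. Of 4 tested carriers of phagocytes, Slc11a1 and Slc16a3 rose, beside 16.7% of all tested probe sets. Of these, Slc16a3 stood under the filter level at 7 weeks and was tested through its signal at 36 weeks. It is also counted under muscle and fat below. Neutrophil markers rose as given at the start. Of 10 tested macrophage markers 2 rose, Lyz2 and Tyrobp, and 8 did not pass, Csf1r at 0.19 and Cd68 at 0.24 among them. The sum of this list went from between 42364 and 43488.4 to between 173910 and 179800, of which Lyz2 alone made up a mean of 23232 at 7 weeks and 146757 at 36 weeks. Of 6 tested carriers of muscle and fat, Slc16a3 rose and Slc6a8 and Slc41a1 fell. Beside them, skeletal muscle markers fell as given at the start. Adipocyte markers rose in 3 of 4 tested genes, Ucp1, Fabp4 and Adipoq, with sums from between 10418.1 and 11693.7 to between 19802.8 and 22290.6. Slc2a4, the insulin-regulated glucose transporter GLUT4, stood at -0.33 (adjusted p = 0.0680), with a second probe set that fell by 0.75 (adjusted p = 0.0317). The part of these other cell types in the carriers' changes was not tested.

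The other 85 members were too dim to test, with mean signals from 33.2 to 589.8 and a median of 317. Of these, 9 stood above the filter level at 36 weeks and 4 at 7 weeks. Slco1a5, an organic anion carrier, had signals of 801.1, 659.5 and 815.3 at 7 weeks and 142.5, 357.0 and 383.4 at 36 weeks. Slc5a1, the sodium-glucose cotransporter SGLT1, had 482.3, 485.3 and 391.5 at 7 weeks and 703.9, 754.9 and 690.2 at 36 weeks. Slc6a5, the neuronal glycine transporter GlyT2, had 449.4, 150.6 and 317.5 at 7 weeks and 552.0, 738.0 and 542.0 at 36 weeks. These 3 were chosen after their values were seen and for ages that do not overlap. The ages did not overlap in 18 of the 85 (21.2%), 13 higher and 5 lower at 36 weeks, against 20.6% of all probe sets at or below the filter.

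More than 1 probe set was present for 83 members. Among 56 further probe sets of tested members that were themselves tested, 15 were called along with the brightest one, 14 in the same direction and 1, of Slc38a10, in the opposite one. Partners and regulators of carriers, which are no members, gave 2 rises and 7 falls among 12 tested, with a median of -0.39. Over all tested probe sets, 16.7% were higher and 17.7% lower. The rises were those of Emb, at 0.42, and Ezr, at 0.63. Oxsr1, Nedd4l and Bsg did not pass, at -0.43, 0.20 and -0.01. Sgk1, a kinase that raises the number of carriers at the cell surface, was at -1.59. Stk39 and Wnk4, kinases of the pathway that switches Slc12 cotransporters on and off, were at -1.35 and -1.07, and the sodium pump subunit Atp1b1 was at -0.67. All 4 of these fell.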

How the data were processed

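Total RNA of the cochlea was extracted with TRIzol and copied to biotin-labelled cRNA, and each sample was hybridised to its own Affymetrix array, as the labels' protocols state. Intensity values were deposited as linear signals per probe set. The summarising software was not given in the sources used here. The arrays appear scaled to a common level, and the absolute scale is unknown.

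Names came from the platform annotation, in which 20380 of 22626 probe sets had 1 gene symbol. Signals were taken as log2(signal + 50), which understates changes of dim probe sets. The 13575 probe sets above the 40th percentile of mean signal were tested with limma 3.58.1 in R 4.3.3 (lmFit, eBayes with intensity trend, unpaired, two-sided), adjusted by Benjamini-Hochberg, threshold 0.05. Figures used Python 3.11.15 and matplotlib 3.10.9. An exact permutation test of 3 against 3 cannot give a p below 0.1. In simulated data with 200 of 13575 probe sets changed, 54% of changes of 1 log2 unit and 11% of 0.5 were recovered at this size. The adjusted threshold depends on the share of probe sets that change. In the real data 4665 were called, so these recovery shares need not hold here.

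Genes named were the 12 largest rises and falls with all 9 young-old pairs one way, the 2 smallest p of each role, all measured hearing-linked carriers and members with opposite probe sets. Further genes were picked with their values in view. The members, role groups and lists were chosen with earlier results of these data known. Alternatives covered scaling, filter, trend, probe-set choice, array left out and a replicate block.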

Additional observations from a re-analysis of the deposited data

How the results depend on the processing

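Across 17 re-fits, 20 of the 48 calls were kept in every one (10 higher, 10 lower), 21 were lost in at least 1 and the rest were not testable in some, and no call reversed direction. Leaving out each array in turn gave 18 to 22 higher and 20 to 25 lower carriers and a median of 0.01 to 0.06, and 16 calls were lost without at least 1 array. Quantile normalization gave 21 higher and 30 lower with a median of -0.024, and centring on the array median gave 18 and 34 with a median of -0.055. A 2-fold minimum left 8 higher and 10 lower. Averaging each gene's probe sets kept 36 calls. Fitting the replicate number as a block gave 23 higher and 22 lower and kept 43 calls. Deviations from the age means had correlations of 0.049, -0.010 and -0.0021 between same-numbered samples. Between differently numbered ones they ran from -0.043 to 0.045. With 3 arrays per age these values cannot show whether the numbers mark a pairing. Precision was limited by 3 arrays per age and by dim signals.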
